A study of Mus musculus with 11 samples.

Results

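Genes that copy DNA and genes that divide the cell were followed across 4 culture conditions in primary microglia, the macrophages that reside in the brain, from mice. The members are 44 listed genes, 20 of DNA replication and 24 of mitosis. A gene was tested when a probe of it was detected, at a detection p-value below 0.01, on at least 2 of the 11 arrays. That left 33 of the 44, namely 18 replication and 15 mitosis genes, out of 8952 genes tested in all. The replication genes Prim1 and Pola1 and the mitosis genes Ccna2, Ccnb2, Bub1, Cenpe, Kif20a, Ube2c and Ttk had probes that were detected on 0 arrays, and Mki67 and Ccnb1 had no named probe in the tables used here. No member was detected in 1 group alone (0 of 33), but 6 were detected on 5 arrays or fewer.

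The cells came from newborn C57BL/6J mice and were kept in DMEM with heat-inactivated FCS and β-mercaptoethanol. A group of 3 arrays had 48 h of IL-4 (100 U/ml), another of 3 had 48 h of TGFb (20 ng/ml), and 2 arrays had 16 h of LPS (100 ng/ml) with IFNg (20 ng/ml). A further 3 arrays were of untreated cells, for which no time is given. IL-4 is a cytokine of alternative macrophage activation, TGFb a cytokine that restrains microglia, and LPS with IFNg a bacterial cell wall component and an interferon that together drive proinflammatory activation. The labels do not say whether replicates were separate cultures or animals, so a p-value here speaks only of the spread among these arrays, which may be technical.

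A cell that divides first copies its genome and then separates the copies. Before S phase, Cdc6 and Cdt1 load the ring of Mcm proteins onto replication origins. Cdc45 and the GINS complex turn that ring into the moving helicase, the sliding clamp Pcna is set in place by the Rfc clamp loader, and Rrm1, Rrm2, Tyms and Tk1 supply nucleotides. Genes of this phase are classical targets of the E2F factors, which the RB family of pocket proteins holds back. Genes of G2 and mitosis come later: Cdk1 drives entry, the Aurora and Polo kinases and the kinesins build the spindle, and Bub1b, Mad2l1 and Cdc20 hold and then release the checkpoint. Promoters of these later genes are known for the cell cycle genes homology region (CHR), bound by MuvB complexes, and for CCAAT boxes, bound by NF-Y.

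The promoters of the 2 classes carried different motifs. In the RefSeq windows from 250 bases before to 50 bases after the gene start (mouse build GRCm38.p6), 18 of 20 listed replication genes and 20 of 24 listed mitosis genes had an entry. Exact letters were searched on both strands. An E2F octamer (TTTCCCGC, TTTGGCGC, TTTCGCGC or TTTGCCGC) was found in 8 of 18 replication promoters (44.4%) and 1 of 20 mitosis promoters (5.0%), against 2.265% of all 32851 windows. A CHR (TTTGAA or TTCGAA) was found in 4 of 18 replication promoters (22.2%) and 15 of 20 mitosis promoters (75%), against 19.2% of all windows. A CCAAT box was found in 12 of 18 (66.7%) and 17 of 20 (85.0%), against 37.4%. A match is a description of letters and not a shown binding site, and E2F octamers on opposite strands can overlap.

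**Figure D1:**
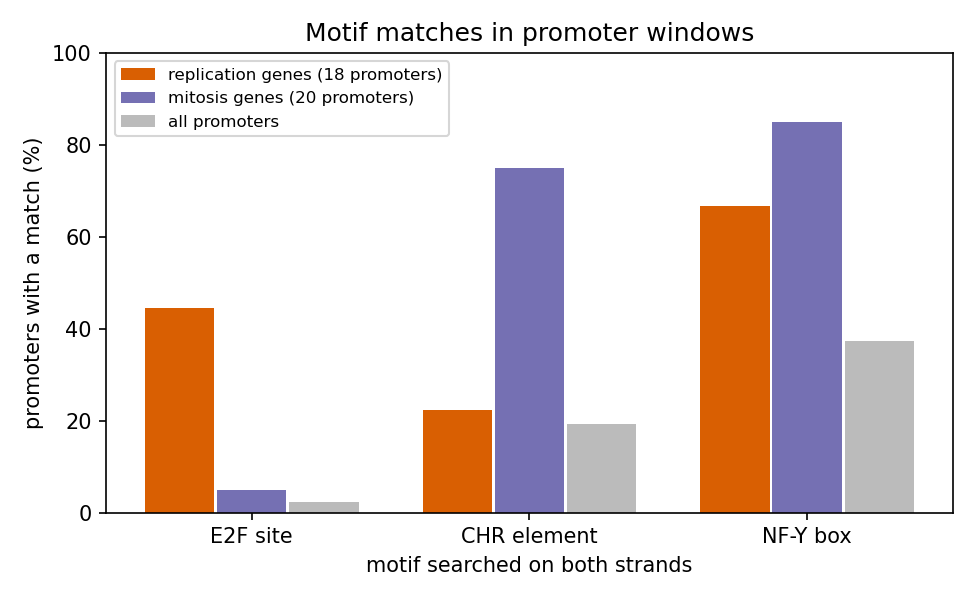
Share of promoter windows (vertical axis, %) with at least 1 match to an E2F octamer, a CHR or a CCAAT box (labelled NF-Y box), for listed replication genes, listed mitosis genes and all windows. The E2F bar is tallest for replication genes (44.4%) and the CHR bar for mitosis genes (75%).

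The following windows show the motifs in the promoters of 2 replication genes, Mcm2 (chr6:88898731-88899030, minus strand) and Mcm5 (chr8:75109259-75109558, plus strand), and 3 mitosis genes, Top2a (chr11:99024140-99024439, minus strand), Cdk1 (chr10:69352863-69353162, minus strand) and Cenpa (chr5:30666636-30666935, plus strand). Cenpa was added after its values were seen, because it changed most. Each is written 5′ to 3′ on the strand of its gene, and capitals mark the motif matches. Mcm5 holds 2 overlapping E2F octamers, 1 on each strand, at positions -153 and -149 from the gene start, and 3 CCAAT boxes. Mcm2 holds 1 CHR and 1 CCAAT box. Top2a holds 4 CHR matches and 6 CCAAT boxes. Cdk1 holds the only E2F octamer found among the mitosis promoters, at -131, with CHR matches at -71 and -15. Cenpa holds 1 CHR, at 16 bases after the start, and CCAAT boxes at -109 and -86.
Mcm2: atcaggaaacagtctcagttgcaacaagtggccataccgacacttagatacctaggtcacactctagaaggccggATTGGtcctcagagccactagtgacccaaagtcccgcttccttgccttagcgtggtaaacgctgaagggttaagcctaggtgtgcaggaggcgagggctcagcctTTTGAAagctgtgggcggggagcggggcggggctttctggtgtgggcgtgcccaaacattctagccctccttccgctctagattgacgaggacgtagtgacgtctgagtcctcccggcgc
Mcm5: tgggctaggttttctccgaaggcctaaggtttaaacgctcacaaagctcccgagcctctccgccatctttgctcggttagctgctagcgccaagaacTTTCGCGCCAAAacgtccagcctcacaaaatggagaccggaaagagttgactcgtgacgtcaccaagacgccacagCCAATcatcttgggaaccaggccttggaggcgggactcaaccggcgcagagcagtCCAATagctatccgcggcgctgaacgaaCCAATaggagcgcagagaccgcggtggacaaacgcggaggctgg
Top2a: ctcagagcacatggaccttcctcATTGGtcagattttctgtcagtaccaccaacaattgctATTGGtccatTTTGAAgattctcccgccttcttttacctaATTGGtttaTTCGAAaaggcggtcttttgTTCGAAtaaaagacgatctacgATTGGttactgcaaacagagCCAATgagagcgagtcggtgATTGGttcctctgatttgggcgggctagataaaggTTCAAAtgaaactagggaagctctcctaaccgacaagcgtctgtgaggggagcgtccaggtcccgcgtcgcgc
Cdk1: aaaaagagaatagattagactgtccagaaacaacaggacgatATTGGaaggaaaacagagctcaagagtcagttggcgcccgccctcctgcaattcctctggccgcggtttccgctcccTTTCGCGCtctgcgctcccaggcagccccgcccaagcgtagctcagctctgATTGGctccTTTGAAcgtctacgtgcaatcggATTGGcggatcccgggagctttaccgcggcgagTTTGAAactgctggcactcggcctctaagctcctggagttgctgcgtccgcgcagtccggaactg
Cenpa: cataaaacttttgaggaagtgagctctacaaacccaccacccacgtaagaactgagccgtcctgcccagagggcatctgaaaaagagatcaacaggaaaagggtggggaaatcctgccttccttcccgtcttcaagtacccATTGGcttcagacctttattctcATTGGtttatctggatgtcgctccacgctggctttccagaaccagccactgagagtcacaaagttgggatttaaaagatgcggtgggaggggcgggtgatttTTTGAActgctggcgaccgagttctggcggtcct

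Values are log2 signals after background correction and quantile normalization, and a change is called where limma's adjusted p over all 8952 genes was below 0.05. The arrays lay on 2 slides: slide 2 held every untreated array and the third replicate of each stimulus, and slide 1 the rest. Median raw signal ran from 120.1 to 127.3 and detected probes from 12427 to 14200 per array, and both LPS/IFNg arrays detected the fewest. Of 12 microglia markers, 10 were tested. All 10 were detected on every array outside LPS/IFNg and 8 on each LPS/IFNg array, and their summed signal was 61295 to 77428 in untreated cells, 56295 to 63979 with IL-4, 63644 to 82879 with TGFb and 39216 to 39751 with LPS/IFNg. IL-4 replicate 1 stood apart, with correlations across genes of 0.945 and 0.954 to replicates 2 and 3, against 0.987 between those. Of 12 fibroblast and mural markers, 5 were tested, and of 8 astrocyte markers 6, and IL-4 replicate 1 alone had all of both sets detected. Col1a1, a collagen chain, stood at 8.32 there and at 4.35 to 5.12 elsewhere, and Gja1, an astrocyte gap junction protein, at 11.15 there and at 4.40 to 6.08 elsewhere. The other astrocyte markers did not stand out so. Aldoc (5.57) and Aldh1l1 (5.93) were highest there, but close to untreated replicate 1 (5.44 and 5.75). Gfap was highest in untreated replicate 3, Slc1a3 in TGFb replicate 3 and Slc1a2 in TGFb replicate 2, and Aqp4 and S100b were detected on 0 arrays. The summed signal of the 6 astrocyte markers was 2496 in IL-4 replicate 1, where Gja1 weighed most. It was 143.2 and 156.2 in the other IL-4 arrays, 143.4 to 228.8 in untreated cells, 175.8 to 231.9 with TGFb and 232.2 and 251.4 with LPS/IFNg. The summed signal of the 5 fibroblast and mural markers was 151.3 to 5307 in untreated cells, 785.6 to 4288 with IL-4, 1005 to 3826 with TGFb and 176.6 to 278.4 with LPS/IFNg. Fn1 weighed most in the highest untreated sum, at 12.33 in untreated replicate 3, where Col1a1 stood at 4.35. Of the markers not tested, Lum, Pdgfrb and Rgs5 were detected on 0 arrays, and Col1a2, Col3a1, Pdgfra and Tagln on 1 array each. The part of these markers in the results was not tested, and values without IL-4 replicate 1 stand beside the results it changes.

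The 2 classes parted most clearly with LPS/IFNg. Averaged over the 15 mitosis genes, the shift from the untreated mean was -1.54 and -1.51 log2 units on the LPS/IFNg arrays, below every other array. Over the 18 replication genes it was -0.49 and -0.40, close to the TGFb arrays (-0.46 to -0.31). The mitosis shift was -1.14 to -0.64 with TGFb, -0.13 to 0.37 with IL-4 and -0.32 to 0.57 in untreated cells. The replication shift was -0.26, 0.41 and 0.65 with IL-4, lowest in replicate 1, and -0.13 to 0.24 in untreated cells. The gap between the classes, replication minus mitosis, was 1.06 and 1.11 with LPS/IFNg and at most 0.68 on any other array. Detection followed the same split: each LPS/IFNg array detected 12 of 18 replication but 5 of 15 mitosis genes, against 14 to 18 and 13 to 15 in untreated cells. In whole-culture RNA, fewer dividing cells and less of each message per cell cannot be told apart.

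**Figure D2:**
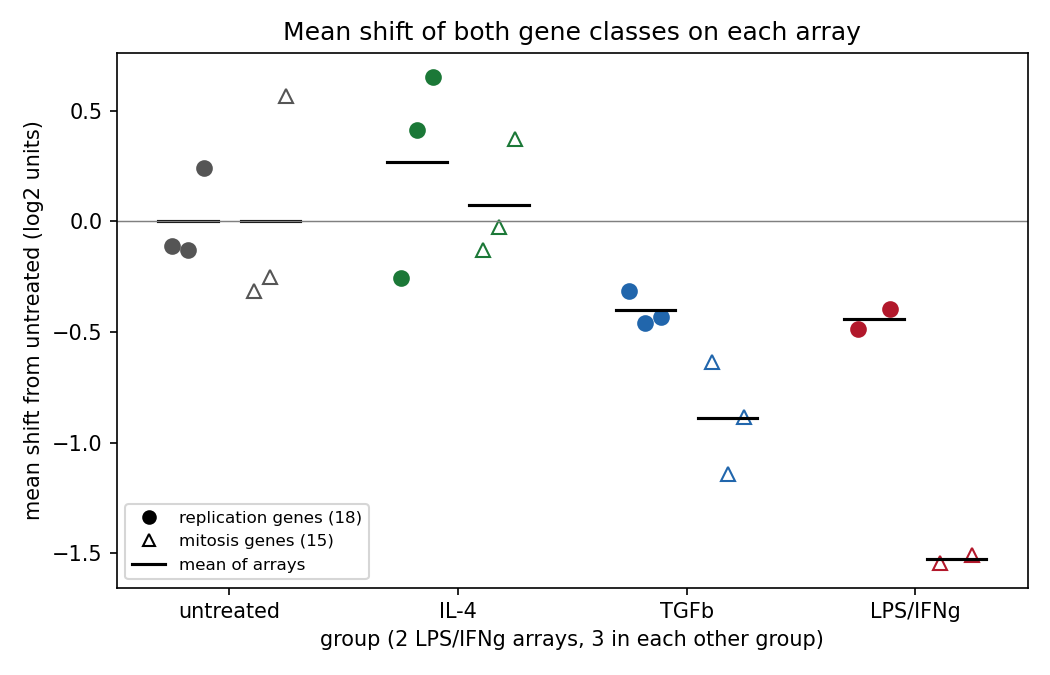
Mean shift from the untreated mean (log2 units, vertical axis) over 18 replication genes (filled circles) and 15 mitosis genes (open triangles), 1 point per array, with black lines for the mean of the arrays. The mitosis genes lie at -1.54 and -1.51 with LPS/IFNg, the replication genes at -0.49 and -0.40.

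The most frequent order of group means was the same in both classes but held for a minority of the replication genes. IL-4, untreated, TGFb and LPS/IFNg followed each other from high to low in 8 of 15 mitosis and 7 of 18 replication genes. LPS/IFNg gave the lowest mean in 13 of 15 mitosis genes but 10 of 18 replication genes, and the highest mean in 4 replication genes and 1 mitosis gene. IL-4 gave the highest mean in 12 replication and 9 mitosis genes. Single arrays weighed on this order, since untreated replicate 3 was the highest array for 10 mitosis genes and IL-4 replicate 3 for 12 replication genes.

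**Figure D3:**
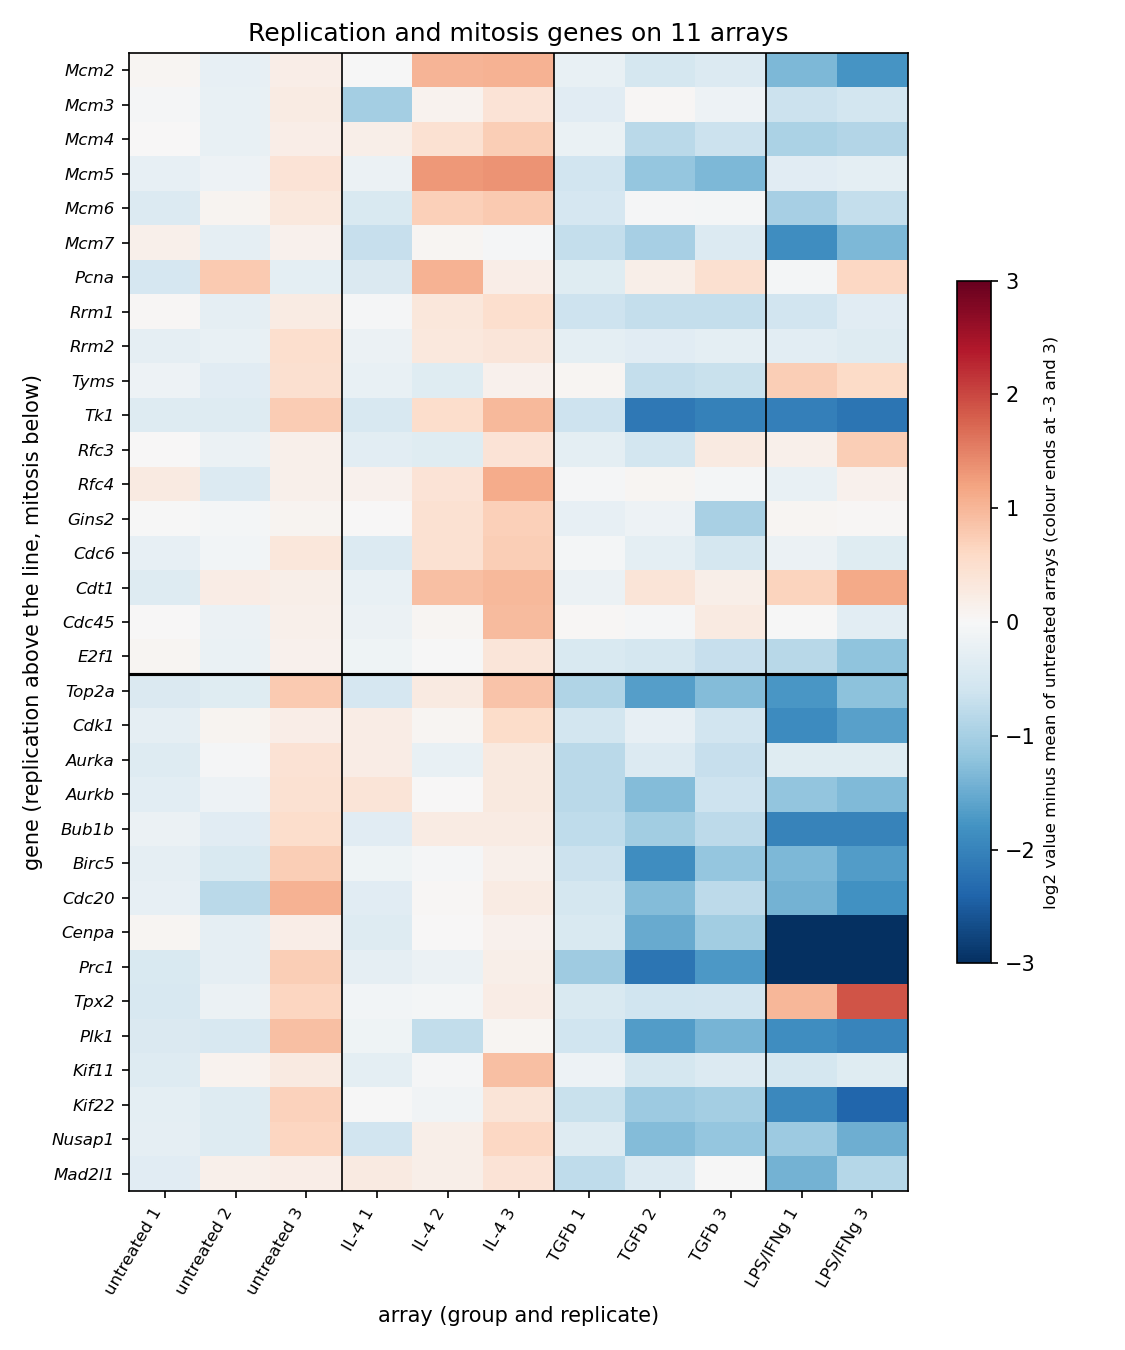
Log2 value minus the untreated mean (colour, blue low and red high) for each of the 33 genes (rows, replication above the line) on each of the 11 arrays (columns). The LPS/IFNg columns are blue for most mitosis genes, with Tpx2 red, and mixed for the replication genes.

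With LPS/IFNg, 12 of 15 mitosis genes fell against untreated cells, 1 rose and 2 were not called. Of the replication genes 5 of 18 fell, 0 rose and 13 were not called. Over all genes tested 41.0% were called, 23.5% lower and 17.5% higher. The lower share of the mitosis genes, 80%, stood far above that background. The lower share of the replication genes, 27.8%, was close to it in this fit. Without IL-4 replicate 1, 7 of 18 replication genes fell and 1 rose, while the genes called lower in all went from 2106 to 2277. Median scaling and array weights also gave 7 replication genes lower, and most other settings 5. The closeness of the replication genes to the background thus depended on the setting. The median change was -1.51 log2 units for mitosis, -0.34 for replication and -0.07 for all genes. Groups did not overlap, with LPS/IFNg lower, in 12 mitosis and 10 replication genes, against 34.9% of all genes, and with LPS/IFNg higher in Tpx2, Tyms and Cdt1, against 28.2%. In all 27 of 33 members read lower, against 53.9% of all genes. Both LPS/IFNg arrays missed detection for 10 mitosis and 5 replication genes, so that a called fall of these is given as a lower bound, taken from the lowest detected signal on each array. Among members with a mean log2 value of at least 6, 7 of 8 mitosis genes fell (median -1.88) and 3 of 11 replication genes (median -0.46). This comparison sets 16 h of stimulation against untreated cultures of unstated time.

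**Figure D4:**
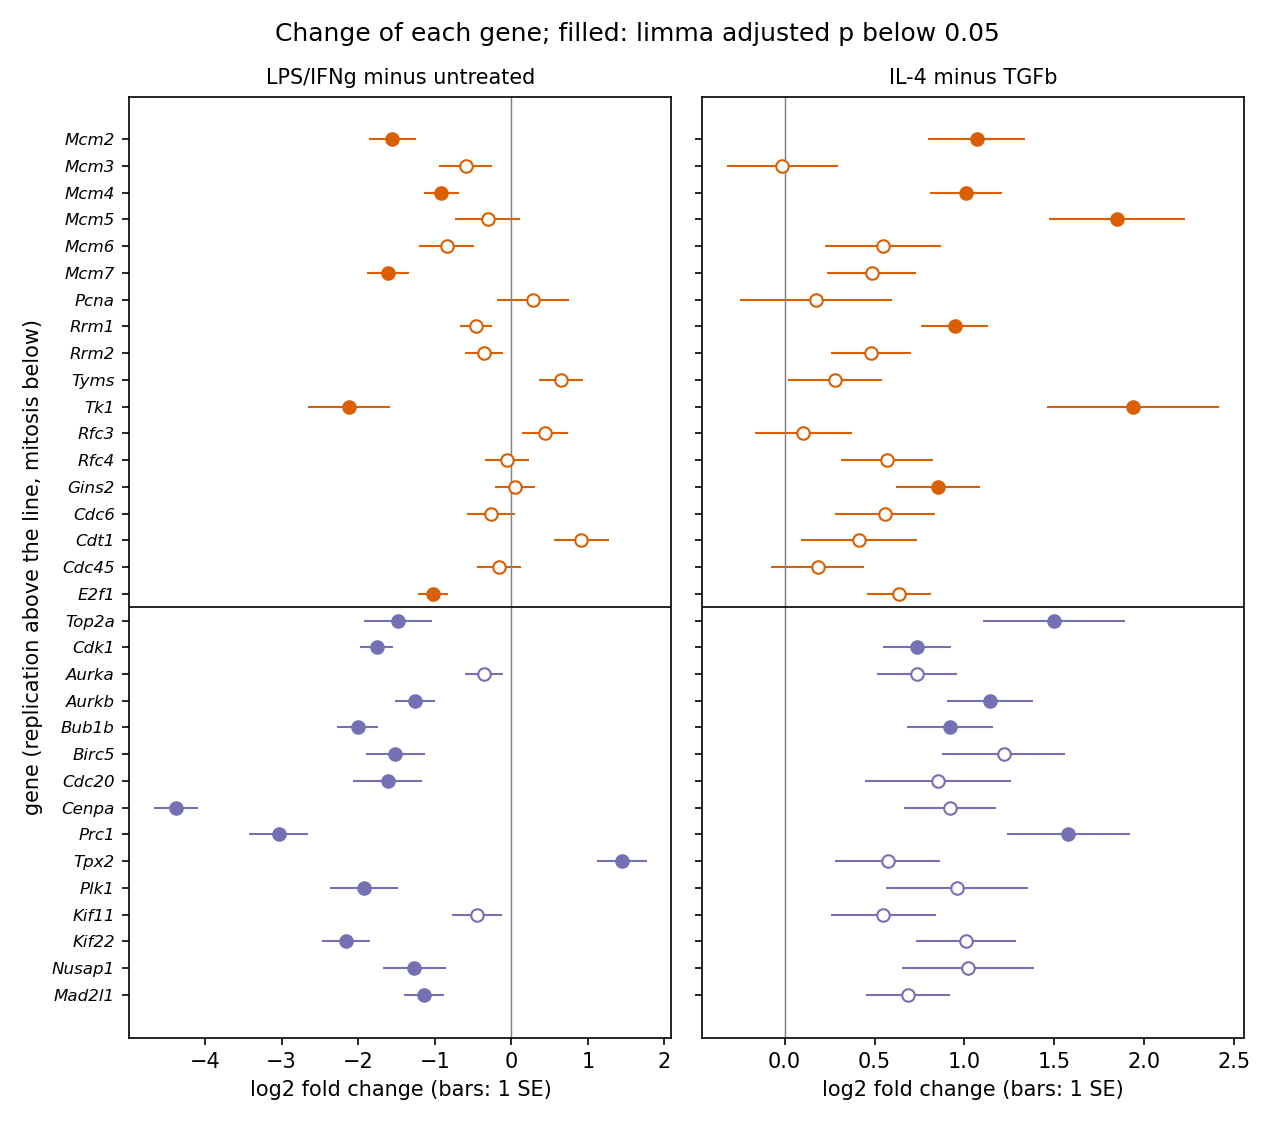
Log2 fold change of each of the 33 genes (points, bars 1 SE) for LPS/IFNg minus untreated (left) and IL-4 minus TGFb (right), filled where limma's adjusted p was below 0.05. On the left 12 mitosis and 5 replication genes are filled below 0 and Tpx2 above; on the right 6 replication and 5 mitosis genes are filled above 0.

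Of 8 helicase genes, 7 read lower with LPS/IFNg (53.9% of all genes) and 3 were called lower (23.5%). In 6 of them, the Mcm genes, both LPS/IFNg arrays lay below every untreated array (34.9% of all genes). The size of the change varied from gene to gene, and differences between the genes were not tested. Mcm2, a subunit of the helicase ring, read 7.10, 6.78 and 7.23 on the untreated arrays, 7.03, 8.06 and 8.07 with IL-4, 6.81, 6.51 and 6.63 with TGFb and 5.70 and 5.27 with LPS/IFNg. Both LPS/IFNg arrays lay below all others, and Mcm2 fell by 1.55 ± 0.30 log2 units against untreated (SE, adjusted p = 0.00213, n = 2 and 3). Mcm2 was detected on 1 of 2 LPS/IFNg arrays, so the size of this fall is uncertain. Mcm4, another subunit, read 9.54, 9.31 and 9.71 on the untreated arrays, 9.70, 9.98 and 10.25 with IL-4, 9.32, 8.72 and 8.88 with TGFb and 8.57 and 8.64 with LPS/IFNg. Here too the LPS/IFNg arrays lay lowest, with a fall of 0.91 ± 0.22 (adjusted p = 0.00781). Mcm7, which was detected on neither LPS/IFNg array, read 6.41, 5.98 and 6.38 on the untreated arrays, 5.56, 6.32 and 6.22 with IL-4, 5.54, 5.26 and 5.85 with TGFb and 4.38 and 4.91 with LPS/IFNg. Against untreated cells it was at least 1.85-fold lower (adjusted p = 0.00102), with the groups apart. Mcm6 read 8.17, 8.66 and 8.88 on the untreated arrays, 8.11, 9.28 and 9.35 with IL-4, 8.06, 8.53 and 8.51 with TGFb and 7.58 and 7.86 with LPS/IFNg. Its LPS/IFNg arrays lay below all others, but the change of -0.85 was not called (adjusted p = 0.0833). Mcm6 was called lower without IL-4 replicate 1 (adjusted p = 0.0139), with array weights (adjusted p = 0.0308) and in some other settings. The call depended on the probe, since 1 of 2 other passing Mcm6 probes was called lower (-1.31, adjusted p over all probes = 0.0155) and the other was not (-0.73, 0.162). Mcm5 read 8.25, 8.34 and 8.89 on the untreated arrays, 8.31, 9.79 and 9.83 with IL-4, 7.91, 7.33 and 7.15 with TGFb and 8.17 and 8.20 with LPS/IFNg. Its LPS/IFNg values sat just under the untreated ones and above the TGFb ones, and the change of -0.31 was not called (adjusted p = 0.589). Mcm3 (-0.60) and the GINS subunit Gins2 (0.04) were not called either, nor was Cdc45, which was detected on 3 arrays and on neither LPS/IFNg array. Without IL-4 replicate 1, Mcm3 was called lower (adjusted p = 0.0265).

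None of the licensing and clamp genes was called with LPS/IFNg (0 of 5). The licensing factor Cdt1 had a change of 0.91 (adjusted p = 0.0648), with both LPS/IFNg arrays above the untreated ones. It was called higher with slide as a fixed block (adjusted p = 0.0413) and without IL-4 replicate 1 (adjusted p = 0.0125). Cdc6, its partner in loading the helicase, was detected on 3 of 11 arrays, none of them with TGFb or LPS/IFNg, and was not called. Pcna, the sliding clamp, read 5.69, 6.98 and 5.90 on the untreated arrays, 5.76, 7.22 and 6.39 with IL-4, 5.82, 6.38 and 6.66 with TGFb and 6.14 and 6.81 with LPS/IFNg. The groups overlapped throughout, and its change with LPS/IFNg was 0.28 (adjusted p = 0.665), or -0.09 with median scaling. The clamp loader subunits Rfc3 (0.44) and Rfc4 (-0.05) were not called. Rfc3, on 5 of 11 arrays, was called higher with slide blocked (adjusted p = 0.00703).

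Of the nucleotide genes, only Tk1 was called with LPS/IFNg against untreated cells. Tk1, thymidine kinase, read 6.25, 6.24 and 7.40 on the untreated arrays, 6.16, 7.16 and 7.60 with IL-4, 6.02, 4.48 and 4.62 with TGFb and 4.58 and 4.44 with LPS/IFNg. It was undetected on both LPS/IFNg arrays and at least 2.40-fold lower than in untreated cells (adjusted p = 0.00909). Rrm1, the large subunit of ribonucleotide reductase, read 7.98, 7.66 and 8.18 on the untreated arrays, 7.89, 8.27 and 8.45 with IL-4, 7.33, 7.23 and 7.22 with TGFb and 7.36 and 7.59 with LPS/IFNg. The LPS/IFNg values lay below the untreated ones and above the TGFb ones, and the change of -0.46 was not called (adjusted p = 0.0972). Rrm1 was called lower with median scaling (adjusted p = 0.0405), with array weights (adjusted p = 0.0357) and without untreated replicate 2 (adjusted p = 0.0464). Rrm2, the small subunit, read 4.49, 4.53 and 5.27 on the untreated arrays, 4.60, 5.07 and 5.13 with IL-4, 4.47, 4.42 and 4.47 with TGFb and 4.44 and 4.37 with LPS/IFNg. It was detected on 2 arrays, IL-4 replicate 3 and untreated replicate 3, and gives no fold. Tyms, thymidylate synthase, read 6.64, 6.46 and 7.26 on the untreated arrays, 6.56, 6.43 and 6.91 with IL-4, 6.85, 6.08 and 6.13 with TGFb and 7.52 and 7.36 with LPS/IFNg. Both LPS/IFNg arrays were the highest of all, with a change against untreated of 0.65 (adjusted p = 0.0987), and the rises against IL-4 (0.81, adjusted p = 0.0481) and TGFb (1.08, adjusted p = 0.0117) were called. The call against IL-4 was lost in 16 of 25 alternatives, 7 of them with 1 array left out and 1 with slide as a fixed block (adjusted p = 0.0634). The call against TGFb was lost in 3, namely median scaling, slide 2 alone and without LPS/IFNg replicate 1 (adjusted p = 0.0753). The other passing Tyms probe was not called against IL-4 (0.57, adjusted p over all probes = 0.211) or TGFb (0.80, 0.0829). In that fit over all probes, the probe used here was not called against IL-4 either (adjusted p = 0.0522). E2f1, the transcription factor of S-phase genes, read 8.92, 8.66 and 8.99 on the untreated arrays, 8.74, 8.84 and 9.23 with IL-4, 8.39, 8.34 and 8.17 with TGFb and 8.02 and 7.65 with LPS/IFNg. Its LPS/IFNg arrays lay below all others, and it fell by 1.02 ± 0.20 (adjusted p = 0.00206).

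**Figure D5:**
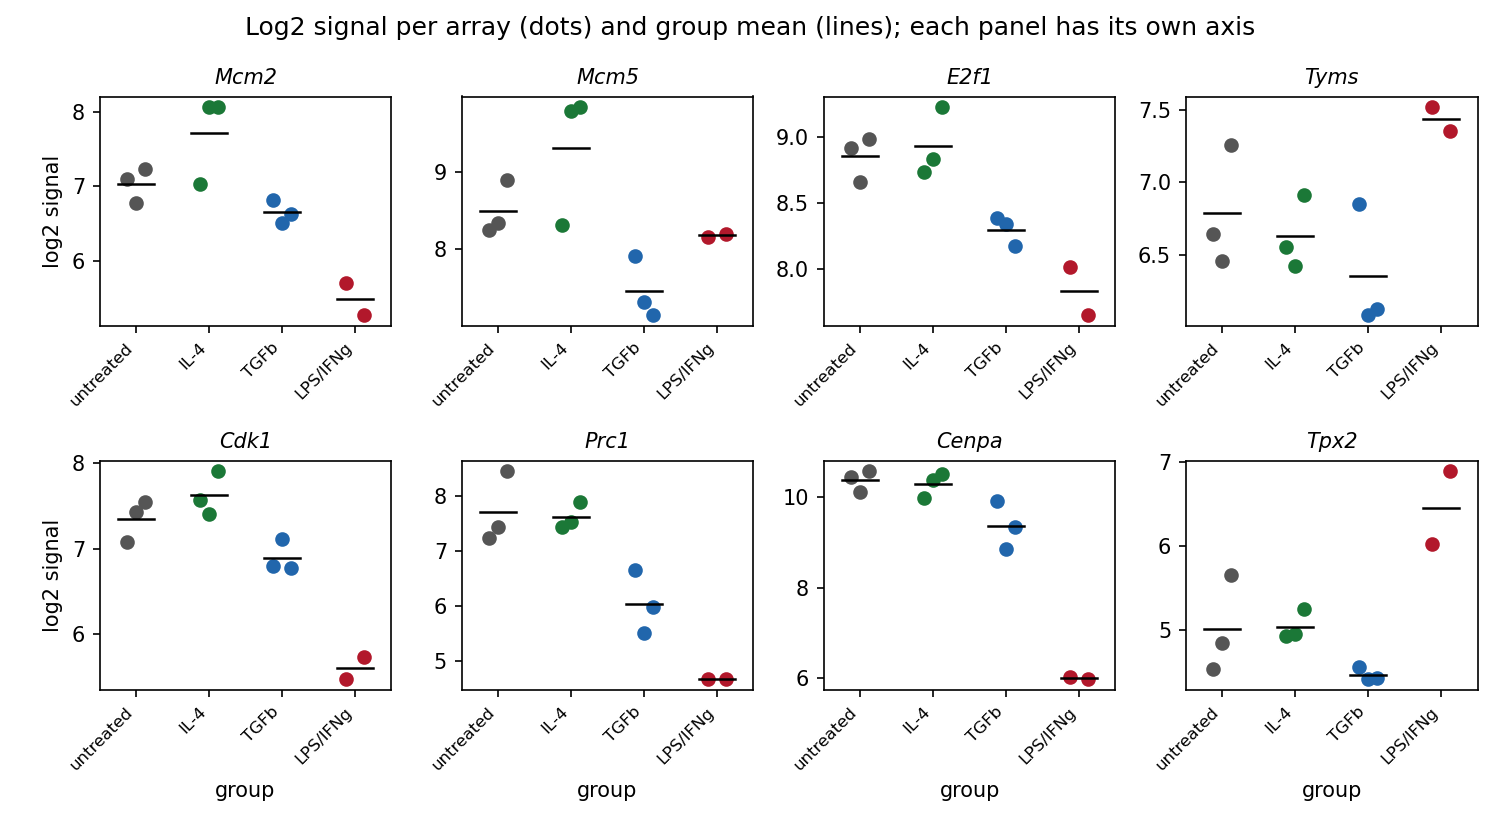
Log2 signal on each array (dots) with the group mean (lines) for 4 replication genes (upper row) and 4 mitosis genes (lower row), each panel with its own vertical axis, 2 LPS/IFNg arrays and 3 in each other group. Cenpa falls to 6.01 and 5.97 with LPS/IFNg, while Tpx2 and Tyms are highest there.

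Among the mitosis genes, Cenpa changed most. Cenpa, the histone H3 variant that marks centromeres, read 10.43, 10.11 and 10.57 on the untreated arrays, 9.97, 10.38 and 10.51 with IL-4, 9.91, 8.86 and 9.34 with TGFb and 6.01 and 5.97 with LPS/IFNg. It remained detected on both LPS/IFNg arrays, which lay far below all others, and it fell by 4.38 ± 0.29 log2 units (adjusted p = 1.63e-06), or 20.8-fold. Birc5, the survivin subunit of the chromosome passenger complex, was at least 2.36-fold lower (adjusted p = 0.00916), at 5.09 ± 0.24 (SD, n = 2) against 6.61 ± 0.64 (n = 3). Cdk1, the kinase that drives mitotic entry, read 7.08, 7.43 and 7.54 on the untreated arrays, 7.58, 7.40 and 7.91 with IL-4, 6.79, 7.11 and 6.77 with TGFb and 5.46 and 5.72 with LPS/IFNg. The LPS/IFNg arrays lay more than 1 log2 unit under every other array, with a fall of 1.76 ± 0.21 (adjusted p = 9.42e-05). Top2a, the topoisomerase that untangles sister chromatids, read 5.75, 5.82 and 6.97 on the untreated arrays, 5.67, 6.45 and 7.04 with IL-4, 5.27, 4.52 and 4.88 with TGFb and 4.44 and 4.95 with LPS/IFNg. It was at least 1.76-fold lower with LPS/IFNg (adjusted p = 0.0209), although the TGFb and LPS/IFNg values overlapped. The call of Top2a was lost in 6 of 25 alternatives, 2 of them with 1 array left out.

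The mitotic and checkpoint kinases fell with 1 exception. Aurka, the kinase of spindle poles, read 5.84, 6.18 and 6.67 on the untreated arrays, 6.45, 6.01 and 6.52 with IL-4, 5.42, 5.81 and 5.53 with TGFb and 5.87 and 5.87 with LPS/IFNg. The LPS/IFNg values lay among the untreated ones, and the change of -0.36 was not called (adjusted p = 0.275). Aurkb, the kinase of the chromosome passenger complex, read 5.85, 6.02 and 6.63 on the untreated arrays, 6.56, 6.18 and 6.47 with IL-4, 5.36, 4.86 and 5.56 with TGFb and 4.98 and 4.84 with LPS/IFNg. It was at least 1.74-fold lower (adjusted p = 0.00336), with TGFb replicate 2 as low as the LPS/IFNg arrays. Bub1b, a checkpoint kinase-like protein, read 7.13, 6.96 and 7.84 on the untreated arrays, 6.98, 7.55 and 7.56 with IL-4, 6.54, 6.26 and 6.53 with TGFb and 5.30 and 5.31 with LPS/IFNg. It was at least 3.84-fold lower (adjusted p = 0.000196), while its other passing probe differed by -0.38 and was not called (limma over all probes, adjusted p = 0.135). Plk1, the Polo kinase, was at least 2.53-fold lower (adjusted p = 0.00524), at 4.78 ± 0.08 (SD, n = 2) against 6.71 ± 0.79 (n = 3). Of the checkpoint pair, Mad2l1 fell by 1.14 ± 0.26 (adjusted p = 0.00524) and Cdc20, the activator of the anaphase-promoting complex, was at least 2.27-fold lower (adjusted p = 0.0152). The call of Cdc20 was lost in 4 of 25 alternatives. Another passing Cdc20 probe was called lower (-1.09, adjusted p over all probes = 0.0412) and a further one was not called (-0.64, 0.0677).

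The spindle genes held both a strong fall and the only rise. Prc1, which bundles microtubules of the spindle midzone, read 7.24, 7.43 and 8.45 on the untreated arrays, 7.44, 7.53 and 7.89 with IL-4, 6.65, 5.51 and 5.98 with TGFb and 4.67 and 4.67 with LPS/IFNg. It was detected on every array but the LPS/IFNg ones, where it was at least 5.07-fold lower (adjusted p = 0.000123). Kif22, a kinesin that binds chromosome arms, read 6.56, 6.47 and 7.54 on the untreated arrays, 6.84, 6.76 and 7.24 with IL-4, 6.20, 5.77 and 5.84 with TGFb and 4.92 and 4.48 with LPS/IFNg. The fall was at least 2.80-fold (adjusted p = 0.000328), both LPS/IFNg arrays lying below all others. Nusap1, a microtubule-binding spindle protein, was at least 1.47-fold lower (adjusted p = 0.0301). That call was lost in 8 of 25 alternatives, 3 of them with 1 array left out. Tpx2, which nucleates spindle microtubules and activates Aurora A, read 4.53, 4.84 and 5.66 on the untreated arrays, 4.92, 4.94 and 5.24 with IL-4, 4.55, 4.41 and 4.42 with TGFb and 6.01 and 6.89 with LPS/IFNg. Both LPS/IFNg arrays lay above all others, and Tpx2 rose by 1.44 ± 0.33 (adjusted p = 0.00493), of which the size is uncertain because 1 of 3 untreated arrays detected it. Tpx2 was detected on 4 arrays, both LPS/IFNg arrays and replicate 3 of IL-4 and of untreated, and the call was lost without LPS/IFNg replicate 3. Kif11, the kinesin that pushes spindle poles apart, was detected on 2 arrays and not called (adjusted p = 0.304).

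The arrays of slide 2 alone left 1 LPS/IFNg array against 3 untreated ones and gave 11 called members, and slide as a fixed block gave 18, of which 16 were called without it. Top2a and Nusap1 lost their call under that block, and Cdt1 and Rfc3 gained one. Without untreated replicate 3, the array with the highest mitosis values, 10 mitosis genes fell, and the medians were -1.09 for mitosis and -0.11 for replication. The gap between the class medians, 1.18 log2 units, was 0.39 without background correction and 0.42 in the authors' table.

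With TGFb, 30 of 33 members read lower than in untreated cells, though limma called 0 of them (17 at an unadjusted p under 0.05). Over all genes 48.6% read lower, and 0.983% were called, 0.369% lower and 0.614% higher. The median was -0.91 for the mitosis genes, each of which read lower, and -0.35 for replication, but -0.60 and -0.16 without untreated replicate 3. The TGFb arrays lay below every untreated array in 9 mitosis and 7 replication genes, against 8.55% of all genes. Prc1 came nearest to a call, at -1.66 (adjusted p = 0.0553, 95% interval -2.42 to -0.91). The next lowest adjusted p were those of Cenpa (-1.0, adjusted p = 0.116), Aurkb (-0.91, adjusted p = 0.122), Rrm1 (-0.68, adjusted p = 0.134) and Bub1b (-0.86, adjusted p = 0.143). Prc1 was called under some other settings, among them slide as a random block (adjusted p = 0.0375) and the replicate block (adjusted p = 0.0406). With array weights 7 members fell, namely Rrm1, Tk1, Aurkb, Bub1b, Birc5, Cenpa and Prc1. Without IL-4 replicate 1, which alters the shared spread, Mcm5 and Prc1 fell, and without TGFb replicate 1 Cenpa and Prc1. Cdt1 (0.14), Cdc45 (0.09) and Pcna (0.10, but -0.05 with median scaling) were the members that did not read lower.

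With IL-4, no member was called against untreated cells (limma, 0 of 33, with 2 at an unadjusted p under 0.05), where 1.28% of all genes were called, 0.860% higher and 0.424% lower. Below 0 stood 9 of 33 members and 48.6% of all genes. Replication genes read higher in 14 of 18 cases with a median of 0.27, and mitosis genes had a median of 0.07, against 0.01 for all genes. Mcm2 had a difference of 0.68 (95% interval 0.08 to 1.29, adjusted p = 0.282) and Mcm5 of 0.81 (-0.02 to 1.65, adjusted p = 0.369). Replicates 2 and 3 of IL-4 lay above all untreated arrays for both genes, and replicate 1 did not. Without IL-4 replicate 1 both rose, Mcm2 by 1.03 (adjusted p = 0.0368) and Mcm5 by 1.32 (adjusted p = 0.0394), and the replication median was 0.59. Array weights also called both. Intervals for the mitosis genes lay on both sides of 0, as for Cenpa (-0.65 to 0.48) and Prc1 (-0.84 to 0.67).

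IL-4 against TGFb, both at 48 h, showed 11 of 33 members higher with IL-4 and 0 lower, where 8.58% of all genes were called, 3.92% higher and 4.66% lower. They were 6 replication genes, Mcm2, Mcm4, Mcm5, Rrm1, Tk1 and Gins2, and 5 mitosis genes, Top2a, Cdk1, Aurkb, Bub1b and Prc1. In all, 32 of 33 members read higher with IL-4, with medians of 0.55 (replication) and 0.92 (mitosis) against 0.02 for all genes, and groups did not overlap in 21 members, against 13.7% of all genes. Tk1 differed by 1.94 ± 0.48 (adjusted p = 0.0326), Mcm5 by 1.85 ± 0.38 (adjusted p = 0.014), Prc1 by 1.58 ± 0.34 (adjusted p = 0.0176) and Top2a by 1.5 ± 0.40 (adjusted p = 0.0425). Tk1 and Top2a were each detected on 1 of 3 TGFb arrays, so the size of their difference is uncertain. Another passing probe of Rrm1 was not called (1.06, adjusted p over all probes = 0.0698). The call of Gins2 (0.85, adjusted p = 0.0486) held in 5 of 25 alternatives. Another passing Gins2 probe was called (1.08, adjusted p over all probes = 0.0118) and a further one was not (0.40, 0.200). Smaller differences were those of Aurkb (1.14, adjusted p = 0.0147), Mcm4 (1.01, adjusted p = 0.0123) and Rrm1 (0.95, adjusted p = 0.0112). The classes did not part here as they did with LPS/IFNg, and that difference was not tested. The count rested on single arrays. It was 1 (Rrm1) without TGFb replicate 2, 3 without IL-4 replicate 3 or TGFb replicate 3, 6 without IL-4 replicate 2 or either LPS/IFNg replicate, 7 without untreated replicate 1, 8 without TGFb replicate 1 and 15 without IL-4 replicate 1. With slide as a fixed block it was 8, and on slide 2, with 1 array a group, 0.

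LPS/IFNg against the other stimuli set 16 h against 48 h. Against IL-4, where 40.0% of all genes were called, 19 members were lower (23.5% of all genes) and 2 higher (16.4%). The lower ones were 12 of 15 mitosis and 7 of 18 replication genes, with medians of -1.60 for mitosis and -0.57 for replication. Against TGFb, where 42.0% were called, 8 were lower (24.2%) and 2 higher (17.8%). The lower ones were 6 mitosis and 2 replication genes, with medians of -0.70 and -0.04. The mitosis median was -0.39 without TGFb replicate 1, and -0.20 without background correction. Tpx2 and Tyms were the 2 higher genes in both comparisons, which share the LPS/IFNg arrays. The other passing Tyms probe was called in neither. Cenpa was lower by 4.29 ± 0.29 against IL-4 (adjusted p = 2.09e-06) and by 3.38 ± 0.29 against TGFb (adjusted p = 7.67e-06). Cdk1 was lower by 2.04 ± 0.21 (adjusted p = 3.85e-05) and 1.30 ± 0.21 (adjusted p = 0.000598). Top2a was at least 2.03-fold lower than with IL-4 (adjusted p = 0.0118) and was not called against TGFb (adjusted p = 0.754). Mcm6 and Rrm1 were lower than with IL-4 (Mcm6 -1.19, adjusted p = 0.0227; Rrm1 -0.73, adjusted p = 0.0171) and not called against TGFb, where another Mcm6 probe was called lower (-1.26, adjusted p over all probes = 0.0177). Without IL-4 replicate 1 the counts against IL-4 and TGFb were 26 and 13.

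Wider lists of the same pathways were read for comparison. With LPS/IFNg, 16 of 40 tested genes of G2 and mitosis outside the members fell and 2 rose (median -0.63), while of 41 further replication genes 8 fell and 9 rose (median -0.16). Over all genes 23.5% were lower and 17.5% higher, so the further replication genes (19.5% lower) stood near that share and the further mitosis genes (40% lower) above it. Pbk, a mitotic kinase, read 6.43, 5.84 and 7.41 (untreated), 5.69, 6.68 and 6.98 (IL-4), 5.94, 4.83 and 5.22 (TGFb) and 4.45 and 4.37 (LPS/IFNg) and was at least 2.28-fold lower with LPS/IFNg (adjusted p = 0.00505). Cdca3 fell by 2.14 ± 0.43 (adjusted p = 0.00247), and Anln, the cytokinesis protein anillin, was at least 1.76-fold lower (adjusted p = 0.00801). Cdca3 was detected on 1 of 2 LPS/IFNg arrays, so the size of its fall is uncertain. Lmnb1, a nuclear lamin, read 7.04, 5.59 and 6.52 (untreated), 5.63, 5.56 and 6.37 (IL-4), 8.35, 7.63 and 6.69 (TGFb) and 5.01 and 4.43 (LPS/IFNg). It was at least 2.02-fold lower with LPS/IFNg (adjusted p = 0.0231) and had its highest mean with TGFb (IL-4 minus TGFb -1.71, adjusted p = 0.0433).

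Some replication genes outside the members rose with LPS/IFNg. Ccne1, cyclin E1 of S-phase entry, read 4.56, 4.35 and 4.94 (untreated), 4.89, 4.44 and 4.76 (IL-4), 4.29, 4.33 and 4.38 (TGFb) and 6.53 and 7.0 (LPS/IFNg). It was detected on the LPS/IFNg arrays alone, so that it was tested only through the group where it is high. For that reason its p-value is not used, and its bound, at least 3.24-fold above untreated cells, is a description. Ccne1 is among the 9 further replication genes counted as risen. Dck, deoxycytidine kinase of the salvage pathway, rose by 1.89 ± 0.43 (adjusted p = 0.00484; IL-4 replicate 1 stood nearly as high, at 7.89), and Timeless, of the fork protection complex, by 1.60 ± 0.29 (adjusted p = 0.00143). Mcm10, a replication initiation factor, read 5.62, 6.31 and 6.69 (untreated), 6.42, 6.59 and 7.31 (IL-4), 5.09, 4.52 and 4.44 (TGFb) and 5.57 and 5.57 (LPS/IFNg). It fell with TGFb by 1.52 ± 0.31 (adjusted p = 0.0499) and was 2.09 ± 0.31 higher with IL-4 than with TGFb (adjusted p = 0.00291). Mcm10 was detected on 1 of 3 TGFb arrays, so the size of both differences is uncertain. Across the further replication genes, 7 of 41 were higher with IL-4 than with TGFb and 0 lower, and across the further mitosis genes 6 of 40 were higher and 1 lower, where 3.92% of all genes were higher and 4.66% lower. How these counts depend on single arrays was not computed for the wider lists.

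Of 14 tested RB and E2F regulators, 3 rose and 7 fell with LPS/IFNg, where 17.5% of all genes were higher, close to the 3 of 14, and 23.5% lower. Rbl1, the pocket protein p107, read 6.87, 7.27 and 7.28 (untreated), 7.54, 7.17 and 7.39 (IL-4), 7.0, 6.91 and 7.19 (TGFb) and 9.79 and 10.65 (LPS/IFNg). Both LPS/IFNg arrays lay above all others, and it rose by 3.08 ± 0.25 log2 units (adjusted p = 7.26e-06). Tfdp2, a dimerization partner of E2F factors, read 6.67, 6.86 and 6.78 (untreated), 5.79, 6.05 and 6.43 (IL-4), 6.54, 6.42 and 6.88 (TGFb) and 4.46 and 4.54 (LPS/IFNg). It was undetected with LPS/IFNg and at least 2.65-fold lower (adjusted p = 1.6e-05). E2f2, an activator E2F, read 6.56, 5.69 and 6.66 (untreated), 5.66, 5.81 and 6.09 (IL-4), 8.23, 8.04 and 7.29 (TGFb) and 4.29 and 4.35 (LPS/IFNg). It was at least 1.91-fold lower with LPS/IFNg (adjusted p = 0.000774) and rose with TGFb by 1.55 ± 0.29 (adjusted p = 0.0393), opposite in sign to most members. Rbbp4, an RB-binding histone chaperone, fell with LPS/IFNg by 1.2 ± 0.24 (adjusted p = 0.00273).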

How the data were processed

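Total RNA was labelled as biotinylated cRNA and hybridised to Illumina mouse arrays. Per the file headers, the deposited scanner table gives for 45281 probes an intensity and a detection p-value on each of 11 arrays. The authors' value table holds log2 values, which matched quantile-normalized log2 signals moved by 1 amount per probe and slide, to within 0.0081. Partek is named in the submitters' processing notes. The neqc function (limma 3.58.1, R 4.3.3) did background correction, with an offset of 16, and quantile normalization. Probes took names from the platform annotation (34885 with 1 symbol, 18 with several, 10378 with none), updated through RefSeq (34807 matched). The passing probe with the highest mean stood for a gene. All 11 arrays entered 1 model without covariates, with 7 residual and 3.52 prior degrees of freedom and Benjamini-Hochberg adjustment over 8952 genes. The script was tested on simulated data. The number of arrays limits the precision.

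The members and lists were chosen with earlier results of these data known. Values on every array are given for a panel (Mcm2, Mcm5, Pcna, Rrm2, E2f1, Top2a, Mki67, Cdk1, Ccnb1 and Aurka) and up to 6 further called members per class by lowest adjusted p, and each wider list gives up to 4 called genes by size of change. Where every array of the lower group missed detection, the bound sets the higher group's mean against the mean, over arrays, of the larger of the probe's value and the lowest detected value. Same-numbered IL-4 and untreated arrays deviated together (correlations 0.401, 0.444 and 0.261), and with replicate number as a block 0 members were called there too. Alternatives were other background, scaling, value table, filter and probe rules, slide or replicate blocks, slide 2 alone, array weights, robust eBayes, 2 groups alone and leaving out each array.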

Additional observations from a re-analysis of the deposited data

How the results depend on the processing

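No called change of a named member reversed its sign under any alternative run. The LPS/IFNg against untreated count of 18 was 11 on slide 2, 20 with the replicate block and 13 to 21 with 1 array left out; 9 of the 18 (Mcm2, Mcm7, E2f1, Cdk1, Aurkb, Bub1b, Cenpa, Prc1 and Kif22) were called in every setting. The IL-4 against untreated count of 0 was 2 with array weights and 0 to 2 with 1 array left out. The TGFb against untreated count of 0 was 1 with the mean of passing probes, slide as a random block, the replicate block or robust eBayes, 7 with array weights and 0 to 2 with 1 array left out. The IL-4 against TGFb count of 11 was 6 without a detection filter, 0 on slide 2, 26 with array weights, 5 with those groups alone and 1 to 15 with 1 array left out. LPS/IFNg against IL-4 (21) gave 11 on slide 2 and 14 to 26 with 1 array left out, and against TGFb (10) 4 without background correction, 3 on slide 2 and 6 to 13 with 1 array left out. The mitosis median with LPS/IFNg, -1.51, was -0.57 without background correction, -0.56 in the authors' table and -1.72 to -1.09 with 1 array left out, and -1.18 with members at their bounds or -1.88 for those with a mean of at least 6, both chosen after seeing the data. The replication median with IL-4, 0.27, was 0.72 on slide 2, 0.56 with array weights and 0.10 to 0.59 with 1 array left out. The mitosis median with TGFb, -0.91, was -0.39 without background correction and -0.30 in the authors' table. With no background correction and in the authors' table alike, the mitosis median of LPS/IFNg against IL-4 was -0.56 in place of -1.60, and the medians of IL-4 against TGFb were 0.30 (replication) and 0.40 (mitosis) in place of 0.55 and 0.92. The replication median of LPS/IFNg against IL-4, -0.57, was -0.86 without IL-4 replicate 1, and that of IL-4 against TGFb was 0.36 without IL-4 replicate 3. The cause of these moves was not tested. Without a detection filter 42 members entered, and with LPS/IFNg 16 fell and 1 rose. Median scaling moved the median of all genes with LPS/IFNg to -0.25, where the mitosis median was -1.74. Outside IL-4 and untreated cells, same-numbered arrays did not all deviate together (over 15 same-numbered pairs of all groups, correlations ran from -0.16 to 0.49), so there the replicate block rests on a shared number only; it gave 14 for IL-4 against TGFb, 20 for LPS/IFNg against IL-4 and 11 against TGFb. Members detected on few arrays (Rrm2, Kif11, Cdc6, Cdc45, Tpx2 and Rfc3) are limited by signal over background.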

Other observations

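Within groups, deviations of members were mostly positively correlated, in both classes. No such value over pairs of other genes is given beside them, so this is not shown to be particular to the members. Across the 11 arrays, deviations from the group mean correlated with a median of 0.57 over 153 pairs of replication genes, 0.59 over 105 pairs of mitosis genes and 0.44 over 270 pairs of 1 gene from each class; the arrays share hybridisation and normalization, and the values are a description. Replicates of untreated cells spread most in the mitosis genes (median SD 0.56, against 0.22 for all genes) and replicates of IL-4 most in the replication genes (0.55 against 0.24). The 6 genes outside the lists whose deviations were most like the mean of the members were Pclaf, the PCNA clamp-associated factor (0.967), Ssr1 (0.949), Pak4 (0.944), Wdr82 (0.934), Fam117a (0.933) and Ext2 (0.932). Between groups these 6 did not move alike: with LPS/IFNg the change was -1.26 for Pclaf, -0.02 for Ssr1, 1.14 for Pak4, 0.19 for Wdr82, -0.84 for Fam117a and -1.79 for Ext2.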
